A study of Mus musculus with 25 samples.

Results

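Gene expression in the anterior neural tissue of 2 wild-type (WT) mouse embryos at embryonic day 8.0 (E8.0) was compared with that of 2 whole WT embryos at E7.5. The 4 samples, 4 of the 25 in the series, were taken by their titles and by the labels for genotype, stage, tissue and plate. All 4 embryos were of the B6 strain, carried no listed treatment and were on plate 1, and each sample came from its own embryo, per the series' design text. Stage and tissue changed together between the groups, so a change over time and a change of dissected tissue cannot be told apart in any value below. The wider study compared WT embryos with embryos without the miR-302 cluster, microRNAs of the early embryo, during neurulation. Its 3 knockout (KO) whole embryos at E7.5 and 3 KO samples of anterior neural tissue at E8.0, also B6, are used here as a second and separate pair of groups. Each RNA was read on its own Illumina MouseRef-8 v2.0 bead array.

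Between E7.5 and E8.0 the mouse embryo passes from gastrulation to early somite stages. At E7.5 cells leave the epiblast through the primitive streak to form mesoderm and endoderm, while the visceral endoderm around the embryo absorbs and secretes lipoproteins and plasma proteins, and the first red blood cells appear in the yolk sac. By E8.0 the anterior ectoderm has thickened into head folds whose cells carry regional transcription factors of forebrain, midbrain and hindbrain. These fields of gene expression are laid down before most neurons are born.

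The deposited tables disagree on which of 3 E8.0 WT arrays is which. The 25 raw signal columns were set against the detection p-values of the same table and against the authors' processed values. For the columns headed E8.0 WT replicates 1, 2 and 3, the probe ranks of the signals equalled those of the processed columns of replicates 3, 1 and 2, with a rank correlation of 1, against 0.908, 0.911 and 0.909 with their own. The detection p-values were out of step with the signals under the same headers at 33.1%, 32.5% and 32.7% of probe steps, and at 0% when paired as the processed values are. Replicate 1 is labelled as a whole embryo on plate 2. Under the identity of the processed table, the array used here as E8.0 replicate 2 would be that sample. The signal headers were followed except where the identity of the processed table is named or its values were fitted. Detection p-values were re-paired to their signals, and results under the other identity are given after the comparison.

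On the 4 arrays 11674 to 12040 of 25697 probes were detected, and the E7.5 pair correlated at 0.983, the E8.0 pair at 0.987 and arrays of different groups at 0.955 to 0.969. Values below are log2 signals after background correction and quantile normalization, given for E7.5 replicates 1 and 2 and then E8.0 replicates 2 and 3. The threshold for a call was an adjusted p of less than 0.05 in limma, where the spread was pooled over 9 groups of the 25 arrays. With 2 arrays a group, an exact permutation test of a single gene cannot go below a two-sided p of 0.333. A fold written as "at least" is a bound, given where a gene was detected on neither array of the dimmer group.

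Anterior neural tissue at E8.0 carried more RNA of some regional neural genes and embryonic globins than the whole E7.5 embryo. It also carried more RNA of a few placental prolactins, which varied widely between embryos, KO embryos at E7.5 among them. Nearly all tested visceral endoderm genes, most primitive streak genes and some Hox and epiblast genes were lower. Of 10261 genes tested, 672 were higher and 769 lower at E8.0, which is 6.55% and 7.49% of genes, or 14.0% in either direction. Rises of 4-fold or more numbered 106 and falls of 4-fold or more 205. The median rise was 1.11 and the median fall -1.41 on the log2 scale, while 69.3% of all genes lay within 0.5 of 0. Of the genes that rose, 156 were not detected on either E7.5 array, and of those that fell, 220 were not detected on either E8.0 array. In bulk samples fewer cells of a type and less RNA per cell cannot be told apart. The counts were 338 and 413 without E7.5 replicate 1 and 360 and 490 without E8.0 replicate 2, and the 4 arrays fitted alone gave 132 and 225.

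**Figure D1:**
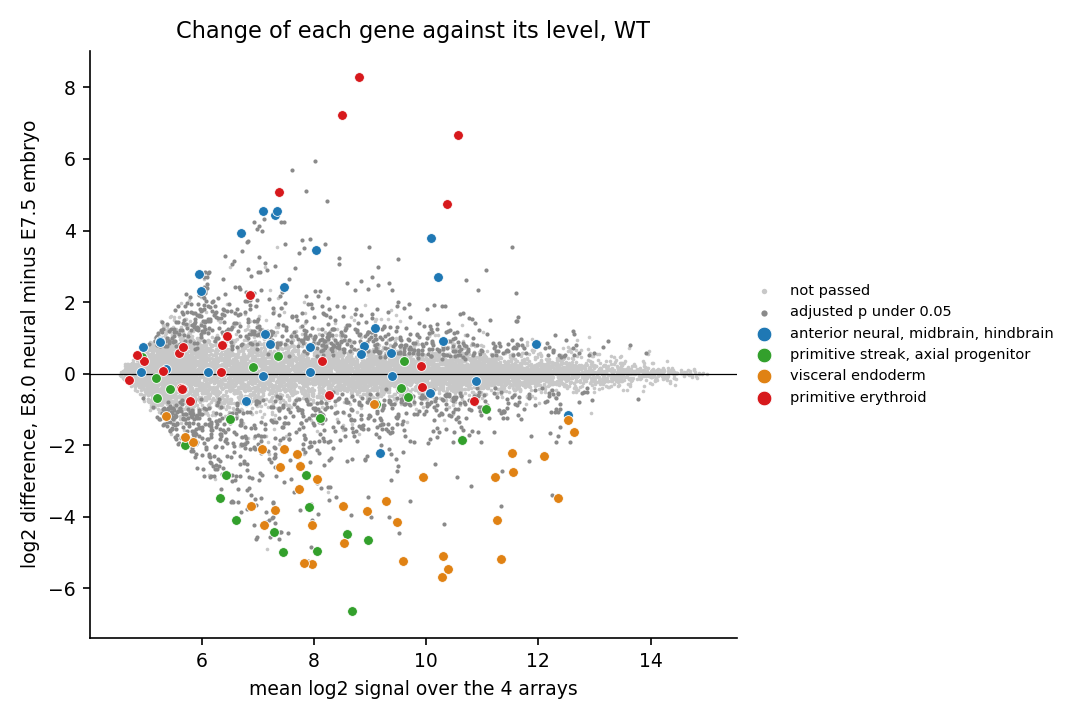
Log2 difference of each of 10261 genes (E8.0 anterior neural tissue minus E7.5 whole embryo, WT) against its mean log2 signal over the 4 arrays, with dark grey for genes at an adjusted p under 0.05 and colours for 4 groups of listed genes. Visceral endoderm genes (orange) lie below 0, down to -5.69 for Ttr, and globins (red) reach 8.28.

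**Figure D2:**
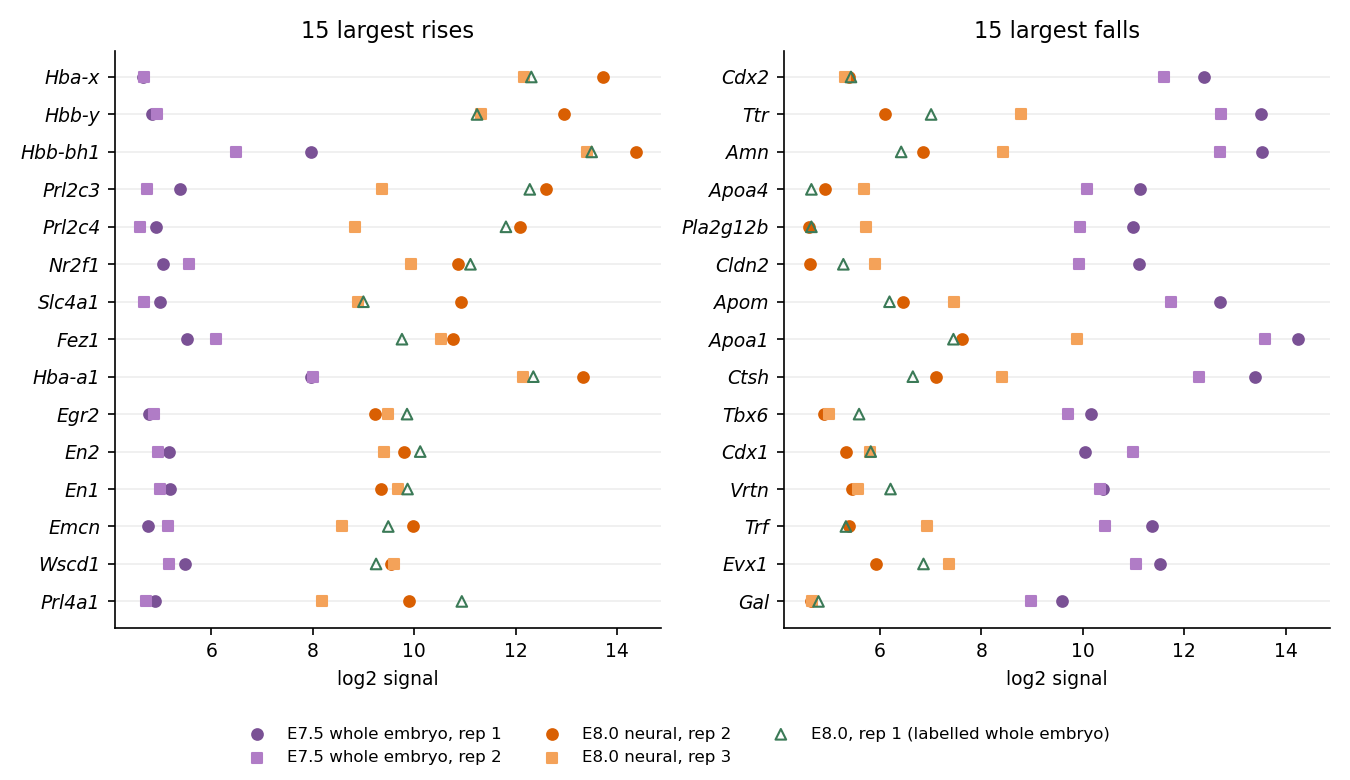
Log2 signal of the 15 largest rises (left) and 15 largest falls (right) that passed, on each E7.5 array (purple), each E8.0 neural array (orange) and the E8.0 array labelled as a whole embryo (open triangles). The 30 genes were picked from those whose E7.5 and E8.0 points do not overlap, a trait of 52.5% of all genes tested. The prolactin genes Prl2c3 and Prl2c4 differ by several log2 units between the E8.0 neural arrays.

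Several transcription factors that divide the neural plate along its length were higher in the neural tissue. Of 24 genes listed for anterior neural patterning, 14 could be tested, 7 rose and 0 fell, with a median of 0.89 against 0.03 over all genes. The head gene Otx1, which shapes forebrain and midbrain, was at 8.13 and 8.28 at E7.5 and 12.12 and 11.84 at E8.0. It was 13.7-fold higher in neural tissue (log2 difference 3.78, SE 0.39, adjusted p = 1.16e-06), with both E8.0 arrays far above both E7.5 arrays. Its relative Otx2 was already high in the whole embryo, at 9.40 and 10.28 at E7.5 and 10.84 and 10.67 at E8.0, a 1.88-fold rise (log2 difference 0.91, SE 0.277, adjusted p = 0.0319). Values of the groups did not overlap for any gene that passed, a pattern also found in 52.5% of all genes tested.

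Several forebrain genes were at or near background at E7.5. Fezf2, a zinc finger factor of the forebrain, was at 4.45 and 4.64 at E7.5 and 7.63 and 7.04 at E8.0 (at least 3.03-fold higher, log2 difference 2.79, SE 0.537, adjusted p = 0.00111). Dmrt3, expressed in the dorsal telencephalon, rose 5.37-fold (adjusted p = 0.00106). Lhx5, a homeobox gene of the forebrain, was at 4.99 and 7.64 at E7.5 and 9.51 and 10.01 at E8.0. The E7.5 embryos thus differed from each other in Lhx5, which was detected only in replicate 2, and both lay below the E8.0 arrays (log2 difference 3.45, SE 0.708, adjusted p = 0.002, and adjusted p = 0.0821 without E7.5 replicate 1). Zic1, a zinc finger factor of the dorsal neural plate, rose at least 2.64-fold (log2 difference 2.31, SE 0.65, adjusted p = 0.0207, and adjusted p = 0.0668 to 0.189 without E7.5 replicate 1, E7.5 replicate 2 or E8.0 replicate 2). Six3, which marks the most anterior plate, passed with a small difference (log2 difference 0.88, SE 0.283, adjusted p = 0.0425) but was detected on only 1 of the 4 arrays, near background. With each of the 4 arrays left out in turn, in the order given, 3, 6, 4 and 5 members of the list rose, and the adjusted p of Otx2 was 0.0806 to 0.437 without E7.5 replicate 1, E8.0 replicate 2 or E8.0 replicate 3 and that of Six3 0.0935 to 0.333 without E7.5 replicate 1, E8.0 replicate 2 or E8.0 replicate 3.

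Genes of the midbrain and of the isthmus, which signals from the midbrain border, went both ways, with 3 of 12 tested members higher and 2 lower (median 0.09). En1 and En2, paired homeobox genes of this region, were not well above background at E7.5. En1 was at 5.19 and 4.98 at E7.5 and 9.35 and 9.68 at E8.0 and En2 at 5.17 and 4.95 at E7.5 and 9.81 and 9.40 at E8.0. They were at least 13.8-fold and at least 14.6-fold higher (log2 difference 4.43, SE 0.508, adjusted p = 3.89e-06 for En1; log2 difference 4.54, SE 0.729, adjusted p = 0.000182 for En2). Wnt1, the ligand of the midbrain border, was at 4.63 and 4.82 at E7.5 and 8.57 and 8.77 at E8.0 (at least 7.63-fold higher, log2 difference 3.94, SE 0.248, adjusted p = 2.7e-09). On these genes both E8.0 arrays stood well clear of both E7.5 arrays. Gbx2 and Wnt3a went the other way. Gbx2, which marks the anterior hindbrain and, earlier, posterior ectoderm, fell from 13.11 to 11.94 on average (log2 difference -1.17, SE 0.24, adjusted p = 0.00195, and adjusted p = 0.0574 without E8.0 replicate 2). Wnt3a, a ligand of the streak and tail bud, fell 3.59-fold (adjusted p = 0.00774, and 0.0554 to 0.0868 without E7.5 replicate 1 or E8.0 replicate 3). The isthmus growth factors Fgf8 (log2 difference 0.36, SE 0.256, adjusted p = 0.427) and Fgf15 (log2 difference 0.76, SE 0.27, adjusted p = 0.0679) did not pass.

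Among hindbrain genes there were also rises and a fall. Egr2, which builds alternate rhombomeres, the segments of the hindbrain, was at 4.78 and 4.87 at E7.5 and 9.22 and 9.49 at E8.0. It was at least 12.3-fold higher (log2 difference 4.54, SE 0.412, adjusted p = 2.87e-07), so tissue labelled as anterior neural held RNA of a hindbrain gene beside those of forebrain and midbrain. Irx2, an Iroquois factor of the hindbrain and midbrain, was at 8.45 and 9.26 at E7.5 and 11.54 and 11.57 at E8.0 (6.49-fold higher, log2 difference 2.70, SE 0.23, adjusted p = 1.27e-07). Hoxb1, at first expressed broadly in posterior ectoderm and mesoderm and later in a single rhombomere, was lower (log2 difference -2.22, SE 0.721, adjusted p = 0.0453). The difference was -1.41, -1.91 and -2.53 without E7.5 replicate 1, E8.0 replicate 2 or E8.0 replicate 3, and the call was lost each time. Another Hoxb1 probe, at -1.87, did not pass. Hoxa2, the Hox gene with the most anterior limit, was at 8.49 and 8.40 at E7.5 and 9.80 and 9.64 at E8.0 and did not pass (log2 difference 1.27, SE 0.436, adjusted p = 0.0578), nor did Irx3 and Irx1 (adjusted p = 0.0632 and 0.175). Of 10 tested hindbrain genes 2 rose and 1 fell (median 0.68). Nr2f1, an orphan nuclear receptor of the neural plate that responds to retinoic acid, had the largest rise of any gene outside blood and placenta, at 5.04 and 5.56 at E7.5 and 10.86 and 9.93 at E8.0 (at least 25.3-fold higher, log2 difference 5.10, SE 0.404, adjusted p = 4.82e-08). Fez1, an adaptor of axonal transport, and Wscd1 were also among the 15 largest rises (28.4-fold and at least 14.3-fold, adjusted p = 1.36e-08 and 3.64e-07).

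Some neural progenitor genes were higher as well. Of 21 tested progenitor genes 8 rose and 0 fell (median 0.60), and with each array left out in turn 6, 8, 7 and 6 rose. Sox21, a SoxB factor of progenitors, was at 8.87 and 9.94 at E7.5 and 12.01 and 12.01 at E8.0 (6.09-fold higher, log2 difference 2.61, SE 0.349, adjusted p = 2.54e-05). Ptn, which encodes the growth factor pleiotrophin, was at 8.82 and 10.69 at E7.5 and 13.34 and 13.28 at E8.0 (11.7-fold higher, log2 difference 3.55, SE 0.405, adjusted p = 3.65e-06). Both embryos at E8.0 had almost the same level of either gene, while the E7.5 embryos were clearly apart. Rfx4, a factor needed for dorsal midline brain development, rose 13.5-fold (log2 difference 3.75, SE 0.367, adjusted p = 6.41e-07), although its other probes, at 0.78 and 0.03, did not pass. Zfp521, which acts in the step from epiblast to neural progenitor, rose 2.99-fold (log2 difference 1.58, SE 0.176, adjusted p = 2.75e-06), with another probe at 0.46 that was detected on 0 of the 4 arrays.

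Sox2, a SoxB factor shared by epiblast and neural plate, was at 5.79 and 5.63 at E7.5 and 8.54 and 8.68 at E8.0 (7.47-fold higher, log2 difference 2.90, SE 0.491, adjusted p = 0.000313), and its other probe, detected on 0 of the 4 arrays, was at 0.18. Hes5, a Notch target that keeps progenitors dividing, was at 5.94 and 5.23 at E7.5 and 8.40 and 8.46 at E8.0 (7.18-fold higher, log2 difference 2.84, SE 0.522, adjusted p = 0.000701). Both genes were detected on 1 of the E7.5 arrays and on both E8.0 arrays. On that E7.5 array, replicate 1, they lay close to the lowest detected value of 5.68, so their folds rest on values near background. Sox1 (0.23, adjusted p = 0.815), the POU factor Pou3f1 (1.48, adjusted p = 0.106) and the neural cadherin Cdh2 (0.53, adjusted p = 0.594) did not pass. Cdh1, the epithelial cadherin that neural ectoderm loses, was at 10.15 and 9.92 at E7.5 and 8.48 and 8.74 at E8.0 and fell 2.68-fold (log2 difference -1.42, SE 0.236, adjusted p = 0.000251). Sox3, Hesx1, Eomes, Kdr and Nodal were detected on too few arrays to be tested.

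Of 23 tested genes of neuronal differentiation 5 rose and 0 fell (median 0.41), and 2, 4, 5 and 4 rose with each array left out in turn. Uchl1, a deubiquitinase of neurons, was at 7.79 and 8.61 at E7.5 and 9.89 and 9.82 at E8.0 (3.15-fold higher, log2 difference 1.66, SE 0.227, adjusted p = 3.33e-05). The neuroendocrine chaperone Scg5 was at 4.61 and 5.0 at E7.5 and 6.84 and 7.34 at E8.0 (at least 2.56-fold higher, log2 difference 2.28, SE 0.316, adjusted p = 3.76e-05). The microtubule protein Map2 (2.08-fold, adjusted p = 0.00424) and the growth cone protein Dpysl3 (2.6-fold, adjusted p = 0.00828) also rose. So did Insm1, a zinc finger factor of newborn neurons (at least 1.57-fold, adjusted p = 0.0141). The calls of Map2, Dpysl3 and Insm1 were lost without E7.5 replicate 1, that of Insm1 also without E7.5 replicate 2, and those of Dpysl3 and Insm1 without E8.0 replicate 3. The log2 differences were then 0.94 for Map2, 1.14 to 1.15 for Dpysl3 and 0.87 to 1.36 for Insm1. Other probes of Map2, at 0.70 and 0.37, did not pass. Of 29 tested genes of axon guidance 7 rose and 1 fell, with 3, 7, 6 and 4 rises when each array was left out. Sema3a, a repellent semaphorin, was at 4.78 and 5.24 at E7.5 and 8.01 and 8.29 at E8.0 (at least 5.34-fold higher, log2 difference 3.15, SE 0.385, adjusted p = 8.73e-06). The ephrin Efna5 and the receptor Ephb1 rose 2.76-fold and 2.49-fold (adjusted p = 0.00233 and 0.00136), and the semaphorin receptor Nrp1 fell 2.18-fold (adjusted p = 0.00499, and 0.103 without E8.0 replicate 2).

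Cells of the ventral neural tube form in response to Sonic hedgehog from the midline. Of 13 tested Shh pathway and ventral genes 4 rose, 0 fell and 9 did not pass (median 0.17), and the same count held with any 1 of the 4 arrays left out. Nkx2-9 was at 5.53 and 5.65 at E7.5 and 8.48 and 8.87 at E8.0 (at least 7.67-fold higher, log2 difference 3.09, SE 0.325, adjusted p = 1.46e-06). Nkx6-1, which sets ventral progenitor domains, was at 4.81 and 7.04 at E7.5 and 9.42 and 9.90 at E8.0 (13.4-fold higher, log2 difference 3.74, SE 0.671, adjusted p = 0.000562), with 1 E7.5 embryo at background and the other above it. Scube2, which helps to release Shh, rose at least 3.35-fold (log2 difference 2.85, SE 0.435, adjusted p = 0.000104). Nkx2-2 rose at least 2.38-fold (log2 difference 1.91, SE 0.433, adjusted p = 0.00465), with a second probe at 0.02 that was detected on 0 of the 4 arrays. Gli3, a transducer of the pathway, and Foxa2, a gene of floor plate, node and endoderm, did not pass (1.25 and -0.59, adjusted p = 0.11 and 0.593).

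Some pluripotency genes of the epiblast were lower in the neural tissue. Of 25 tested members 9 fell and 0 rose (median -0.76), and 5, 8, 5 and 7 fell with each array left out. Pou5f1, the Oct4 gene, was at 12.04 and 10.64 at E7.5 and 6.22 and 8.41 at E8.0 (16.2-fold lower, log2 difference -4.02, SE 0.714, adjusted p = 0.000498). Both E7.5 embryos were far above both E8.0 samples, which differed from each other by more than the E7.5 embryos did, replicate 3 being the higher. Nanog was at 7.80 and 7.73 at E7.5 and 5.23 and 4.68 at E8.0 (at least 4.07-fold lower, log2 difference -2.81, SE 0.723, adjusted p = 0.0114, and adjusted p = 0.0747 to 0.0881 without E7.5 replicate 1 or E8.0 replicate 3). The other falls included Dppa5a (8.92-fold, adjusted p = 0.000903), the RNA-binding L1td1 (12.5-fold, adjusted p = 0.00361, and 0.068 without E8.0 replicate 2) and Ifitm1 (at least 1.93-fold, adjusted p = 0.000193).

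Markers of the primed epiblast had smaller differences. Fgf5 was at 6.44 and 7.44 at E7.5 and 5.21 and 5.53 at E8.0 (at least 2.3-fold lower, log2 difference -1.58, SE 0.423, adjusted p = 0.0153, and adjusted p = 0.121 to 0.181 without E7.5 replicate 2 or E8.0 replicate 2). Utf1 was at least 1.69-fold lower (log2 difference -1.16, SE 0.38, adjusted p = 0.0465), a call lost on each removal (adjusted p = 0.085 to 0.231 without any 1 of the 4 arrays). Dnmt3b, the de novo DNA methyltransferase of the epiblast, was at 14.11 and 14.17 at E7.5 and 13.24 and 13.60 at E8.0 (1.65-fold lower, log2 difference -0.72, SE 0.219, adjusted p = 0.0318, and adjusted p = 0.115 to 0.27 without E7.5 replicate 1, E7.5 replicate 2 or E8.0 replicate 2). Its other probe, at -0.44, did not pass. Of 8 tested genes of the Lin28 and let-7 timing pathway 0 passed (median 0.28), and Dicer1, the nuclease that matures microRNAs, was at 9.40 and 9.67 at E7.5 and 9.63 and 9.77 at E8.0 (adjusted p = 0.725).

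Primitive streak and axial progenitor genes showed a broad fall. Of 26 tested members 16 fell and 0 rose, with a median of -1.56, and 12, 15, 14 and 14 fell with each array left out. Cdx2, a caudal homeobox factor of the posterior embryo and of trophoblast, was at 12.39 and 11.61 at E7.5 and 5.40 and 5.31 at E8.0. It had the largest fall of any gene, at least 76.5-fold (log2 difference -6.64, SE 0.267, adjusted p = 4.28e-12), and was not detected on either E8.0 array. Tbx6, which makes paraxial mesoderm, was at 10.16 and 9.71 at E7.5 and 4.90 and 4.99 at E8.0 (at least 18.3-fold lower, log2 difference -4.99, SE 0.451, adjusted p = 2.67e-07). Evx1, an even-skipped factor of the streak, was at 11.52 and 11.05 at E7.5 and 5.92 and 7.37 at E8.0 (24.9-fold lower, log2 difference -4.64, SE 0.577, adjusted p = 1.07e-05). Mesp1, which marks nascent cardiac and head mesoderm, was at 9.40 and 7.92 at E7.5 and 4.57 and 4.56 at E8.0 (at least 7.56-fold lower, log2 difference -4.09, SE 0.317, adjusted p = 3.66e-08). Mixl1, of mesendoderm, fell at least 4.99-fold (log2 difference -3.47, SE 0.321, adjusted p = 3.5e-07), and a second probe of it fell by 1.37. Nkx1-2, of the caudal epiblast, and Rspo3, an agonist of Wnt signalling, fell at least 13.6-fold and 22.3-fold (adjusted p = 2.52e-09 and 3.32e-07).

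Other genes of the tail end of the embryo fell with them. Cdx1, a second caudal factor, was at 10.05 and 11.00 at E7.5 and 5.34 and 5.81 at E8.0 (30.9-fold lower, log2 difference -4.95, SE 0.55, adjusted p = 2.68e-06), and its other probe fell by 5.9. Vrtn, which acts on vertebral number, and Gal, which encodes the neuropeptide galanin, were also among the 15 largest falls. Vrtn was at 10.40 and 10.34 at E7.5 and 5.45 and 5.57 at E8.0 and fell at least 24.7-fold, and Gal was at 9.59 and 8.97 at E7.5 and 4.64 and 4.67 at E8.0 and fell at least 11.6-fold (adjusted p = 4.14e-06 and 5.59e-10). Of 18 tested Hox genes 7 fell and 0 rose (median -1.25), and 9, 6, 5 and 5 fell with each array left out. Hoxa5 was at 9.06 and 9.49 at E7.5 and 4.63 and 4.77 at E8.0 (at least 11.5-fold lower, log2 difference -4.57, SE 0.682, adjusted p = 8.14e-05). Hoxb7, at 8.11 and 9.15 at E7.5 and 4.67 and 4.82 at E8.0, and Hoxb6, at 7.92 and 8.79 at E7.5 and 4.86 and 4.68 at E8.0, fell at least 7.4-fold and at least 6.1-fold (adjusted p = 4.25e-07 and 6.76e-07). These Hox genes, which act behind the head, were below detection in both E8.0 samples. Hoxb5 and Hoxd9 fell 9.94-fold and at least 5.85-fold (adjusted p = 0.000374 and 0.000204).

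Visceral endoderm genes had the highest share of changed members among the 32 lists. Of 36 tested members 35 fell and 0 rose, with a median of -3.35, and 31, 34, 31 and 33 fell with each array left out. Ttr, the carrier of thyroid hormone and retinol-binding protein, was at 13.52 and 12.73 at E7.5 and 6.10 and 8.78 at E8.0 (51.8-fold lower, log2 difference -5.69, SE 0.977, adjusted p = 0.000361). Amn, the endocytic receptor subunit amnionless, was at 13.53 and 12.70 at E7.5 and 6.86 and 8.43 at E8.0 (44.4-fold lower, log2 difference -5.47, SE 0.527, adjusted p = 5.34e-07). Apoa1, the main apolipoprotein of high-density particles, was at 14.24 and 13.60 at E7.5 and 7.62 and 9.88 at E8.0 (36.1-fold lower, log2 difference -5.17, SE 0.992, adjusted p = 0.00106). In all 3 the E8.0 samples kept a signal, higher in replicate 3 than in replicate 2. The mean log2 signal of the list was 11.13 and 10.31 at E7.5 and 7.07 and 7.69 at E8.0.

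More of the 15 largest falls belong to the same absorptive tissue. Apoa4, an apolipoprotein, fell at least 29.2-fold, Apom 38.1-fold, the tight junction gene Cldn2 38.1-fold and the phospholipase relative Pla2g12b 39.5-fold (adjusted p = 0.000219, 1.03e-07, 7.98e-09 and 3.66e-08). The lysosomal protease Ctsh was at 13.40 and 12.30 at E7.5 and 7.11 and 8.40 at E8.0 and fell 34.2-fold, and the iron carrier transferrin, Trf, was at 11.36 and 10.43 at E7.5 and 5.40 and 6.92 at E8.0 and fell 26.5-fold (adjusted p = 4.36e-07 and 1.79e-06). Habp2 and Slc2a2 had the smallest adjusted p-values of the list. Habp2, a plasma protease, was at 9.05 and 8.41 at E7.5 and 4.81 and 5.23 at E8.0 (at least 7.92-fold lower, log2 difference -3.71, SE 0.182, adjusted p = 9.48e-11). The glucose transporter Slc2a2 was at 9.77 and 8.67 at E7.5 and 4.73 and 5.27 at E8.0 (at least 11.2-fold lower, log2 difference -4.22, SE 0.239, adjusted p = 5.86e-10). Afp, the fetal plasma protein of yolk sac, was dim in these embryos, at 6.56 and 5.33 at E7.5 and 4.83 and 4.71 at E8.0 (at least 1.15-fold lower, log2 difference -1.18, SE 0.301, adjusted p = 0.0111, and adjusted p = 0.051 to 0.289 without E7.5 replicate 1, E8.0 replicate 2 or E8.0 replicate 3). The parietal endoderm and basement membrane list, which marks the other extraembryonic endoderm, did not move in this way (median -0.05). Among its 15 tested genes 2 fell (13.3%, against 7.49% of all genes) and 0 rose.

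Promoters are shown for a visceral endoderm fall of small p and the largest rises, to set the letters of a motif known in each tissue beside the values. Each window is the 250 bases before the gene's start in RefSeq (GRCm38.p6), written 5′ to 3′. In the Habp2 window (chr19:56287662-56287911, plus strand) capitals mark GTTAAT, a half-site of the HNF1 factors of endoderm, 66 bases before the start. The Hba-x window (chr11:32276350-32276599, plus strand) and the Hbb-y window (chr7:103853208-103853457, minus strand) have TGATAA, read on the minus strand as TTATCA, in capitals, a form of the motif of the GATA factors of blood, 108 and 162 bases before the start.
Habp2: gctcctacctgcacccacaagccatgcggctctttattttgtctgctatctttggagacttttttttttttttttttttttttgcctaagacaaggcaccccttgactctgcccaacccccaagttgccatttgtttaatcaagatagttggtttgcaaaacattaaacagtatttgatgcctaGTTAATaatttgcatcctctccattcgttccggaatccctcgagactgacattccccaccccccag
Hba-x: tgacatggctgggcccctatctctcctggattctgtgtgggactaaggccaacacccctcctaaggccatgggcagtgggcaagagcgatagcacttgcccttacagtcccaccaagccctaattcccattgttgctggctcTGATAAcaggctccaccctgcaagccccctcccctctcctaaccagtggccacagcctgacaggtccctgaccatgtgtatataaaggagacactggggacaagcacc
Hbb-y: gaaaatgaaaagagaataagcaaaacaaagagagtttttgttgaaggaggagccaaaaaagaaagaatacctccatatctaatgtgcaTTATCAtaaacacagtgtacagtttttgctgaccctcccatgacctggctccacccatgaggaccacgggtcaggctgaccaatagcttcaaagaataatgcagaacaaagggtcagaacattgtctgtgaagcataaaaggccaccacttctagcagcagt
GTTAAT, on either strand, was present in 7 of 38 promoters of tested visceral endoderm genes (18.4%), in 0 of 19 of erythroid genes and in 6.43% of all 32851 promoters of this length. AGATAA or TGATAA, on either strand, was present in 11 of 19 promoters of erythroid genes (57.9%), in 7 of 38 of visceral endoderm genes and in 16.6% of all. A match describes the letters and is not a binding site.

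Blood genes gave the 3 largest rises. Hba-x, the embryonic alpha-like globin, was at 4.65 and 4.68 at E7.5 and 13.73 and 12.16 at E8.0. It was at least 148-fold higher (log2 difference 8.28, SE 0.873, adjusted p = 1.47e-06). Hbb-y, an embryonic beta-like globin, was at 4.84 and 4.93 at E7.5 and 12.95 and 11.31 at E8.0 (at least 84.1-fold higher, log2 difference 7.24, SE 0.674, adjusted p = 3.63e-07), and Hbb-bh1, the earliest beta-like globin, was already detected at E7.5, at 7.96 and 6.49 at E7.5 and 14.38 and 13.41 at E8.0 (102-fold higher, log2 difference 6.67, SE 1.17, adjusted p = 0.000461). All these globins were brighter in E8.0 replicate 2 than in replicate 3 and not well above background or dim at E7.5. The adult-type alpha globin Hba-a1, whose probe cannot be assumed to separate it from its near-identical copy, rose 27-fold (log2 difference 4.75, SE 1.49, adjusted p = 0.0383), a call lost on each removal (adjusted p = 0.0813 to 0.215 without any 1 of the 4 arrays).

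Slc4a1, the anion exchanger of the red cell membrane, was at 4.99 and 4.68 at E7.5 and 10.92 and 8.89 at E8.0 (at least 18-fold higher, log2 difference 5.07, SE 0.72, adjusted p = 4.78e-05). Alas2, the first enzyme of erythroid haem synthesis, rose 4.58-fold (log2 difference 2.20, SE 0.664, adjusted p = 0.0311, and adjusted p = 0.104 to 0.26 without E7.5 replicate 1, E7.5 replicate 2 or E8.0 replicate 2), while Lmo2, a partner of the blood and vessel factors, was slightly lower (log2 difference -0.77, SE 0.168, adjusted p = 0.00334). In all, 6 of 23 tested erythroid and platelet genes rose and 1 fell (median 0.35), with 4, 4, 4 and 5 rises when each array was left out. The mean log2 signal of this list was 6.57 and 6.39 at E7.5 and 8.35 and 7.70 at E8.0. Globin RNA was thus present in both dissections labelled as anterior neural tissue.

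Endothelial genes moved in both directions. Of 20 tested members 3 rose and 2 fell (median 0.60), with 3, 4, 3 and 4 rises and 0, 1, 1 and 0 falls when each array was left out. Emcn, the sialoprotein endomucin of vessels, was at 4.76 and 5.14 at E7.5 and 9.98 and 8.58 at E8.0 (at least 11.7-fold higher, log2 difference 4.33, SE 0.47, adjusted p = 1.98e-06). The adhesion molecule Icam2 and the diaphragm protein Plvap rose 8.12-fold and 5.03-fold (adjusted p = 0.000376 and 0.00107). Etv2, which starts the blood and vessel lineage, was lower, at 11.95 and 11.67 at E7.5 and 10.90 and 10.66 at E8.0 (log2 difference -1.03, SE 0.327, adjusted p = 0.0405, and adjusted p = 0.0668 to 0.23 without any 1 of the 4 arrays). The list mean was 7.15 and 7.33 at E7.5 and 8.38 and 7.62 at E8.0, higher in E8.0 replicate 2 than in replicate 3, as for the erythroid genes.

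Trophoblast genes were present in the E8.0 samples at levels that differed between embryos. Prl2c3 and Prl2c4, near-identical members of the placental prolactin family, were at 5.38 and 4.74 at E7.5 and 12.60 and 9.37 at E8.0 and at 4.91 and 4.59 at E7.5 and 12.08 and 8.83 at E8.0. Replicate 2 was far brighter than replicate 3, and both exceeded the E7.5 embryos (at least 38.1-fold for Prl2c3, log2 difference 5.93, SE 1.64, adjusted p = 0.0183; at least 26.4-fold for Prl2c4, log2 difference 5.70, SE 1.55, adjusted p = 0.0167). Prl4a1 was at 4.90 and 4.71 at E7.5 and 9.89 and 8.19 at E8.0 (at least 9.89-fold higher, log2 difference 4.23, SE 1.12, adjusted p = 0.0141), and the X-linked homeobox gene Rhox9, which has close paralogs, rose at least 13.7-fold (adjusted p = 0.0291). These calls were lost when single arrays were left out, where the adjusted p was 0.0763 to 0.223 without E7.5 replicate 1, E7.5 replicate 2 or E8.0 replicate 2 for Prl2c3, 0.0702 to 0.22 without E7.5 replicate 1, E7.5 replicate 2 or E8.0 replicate 2 for Prl2c4, 0.0607 to 0.161 without E7.5 replicate 1, E7.5 replicate 2 or E8.0 replicate 2 for Prl4a1 and 0.0505 to 0.218 without any 1 of the 4 arrays for Rhox9. Prl2c3 and Prl2c4 were named as large rises and are not among the members of the trophoblast and placenta list counted below. Some members of that list fell. Hand1, of trophoblast giant cells, amnion and heart, was at 7.32 and 7.30 at E7.5 and 5.20 and 4.76 at E8.0 (at least 2.96-fold lower, log2 difference -2.33, SE 0.282, adjusted p = 7.56e-06), and Phlda2, an imprinted brake on placental growth, was at 14.17 and 13.72 at E7.5 and 10.36 and 10.73 at E8.0 (10.6-fold lower, log2 difference -3.40, SE 0.479, adjusted p = 4.42e-05). The list mean was 7.91 and 7.72 at E7.5 and 8.26 and 7.85 at E8.0, and 3 of 16 tested members rose and 3 fell, with 0, 1, 0 and 1 rises when each array was left out.

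Markers of heart and muscle separated the E8.0 embryos. Myl2, a ventricular myosin light chain, was at 10.15 and 9.65 at E7.5 and 4.58 and 8.58 at E8.0 (log2 difference -3.32, SE 1.1, adjusted p = 0.0512). Acta1, of striated muscle, was at 6.42 and 4.54 at E7.5 and 6.41 and 8.44 at E8.0, and the heart factor Nkx2-5 at 5.42 and 7.14 at E7.5 and 6.23 and 8.36 at E8.0, neither passing (adjusted p = 0.108 and 0.354). Replicate 3 was the higher of the E8.0 samples for all 3. The mean of the 21 tested cardiac and muscle genes was 7.73 and 7.71 at E7.5 and 6.63 and 8.35 at E8.0, so that the E8.0 arrays lay on either side of the E7.5 pair. Among these genes 2 fell (9.52%, against 7.49% of all genes) and 0 rose. Smarcd3, a chromatin remodelling subunit of early heart mesoderm, was at 9.09 and 9.21 at E7.5 and 6.34 and 7.04 at E8.0 (5.51-fold lower, log2 difference -2.46, SE 0.274, adjusted p = 2.75e-06), and Gata5, an endocardial and endodermal factor, fell at least 1.92-fold (adjusted p = 0.000857). Falls numbered 2, 2, 2 and 4 with each array left out. The part that blood, placental or heart cells had in the other differences was not tested.

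Of 15 tested genes of extraembryonic mesoderm and amnion 8 fell and 1 rose (median -0.88), with 3, 5, 4 and 6 falls when each array was left out. Foxf1, a forkhead factor of the lateral and extraembryonic mesoderm, was at 8.88 and 8.46 at E7.5 and 4.73 and 5.30 at E8.0 (at least 7.61-fold lower, log2 difference -3.66, SE 0.289, adjusted p = 4.76e-08). Bmp4, the signal of this tissue to the epiblast, was at 11.33 and 10.76 at E7.5 and 8.82 and 9.99 at E8.0 (3.11-fold lower, log2 difference -1.64, SE 0.397, adjusted p = 0.00771, and adjusted p = 0.11 to 0.177 without E7.5 replicate 1 or E8.0 replicate 2). The imprinted gene Mest, of mesoderm, was the member that rose, at 10.84 and 10.84 at E7.5 and 12.40 and 12.43 at E8.0 (2.99-fold, log2 difference 1.58, SE 0.207, adjusted p = 1.97e-05). Among 16 tested genes of definitive endoderm, node and notochord 4 fell and 0 rose (median -0.42). Cer1, a Nodal, BMP and Wnt antagonist of the anterior endoderm, was at 8.66 and 7.42 at E7.5 and 4.98 and 5.10 at E8.0 (at least 4.93-fold lower, log2 difference -3.01, SE 0.305, adjusted p = 9.69e-07). Sox17, the endoderm factor, was at 9.91 and 9.15 at E7.5 and 6.86 and 6.32 at E8.0 (7.68-fold lower, log2 difference -2.94, SE 0.438, adjusted p = 8.07e-05), and the BMP antagonist Chrd of the node fell 4.4-fold (adjusted p = 0.00277).

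**Figure D3:**
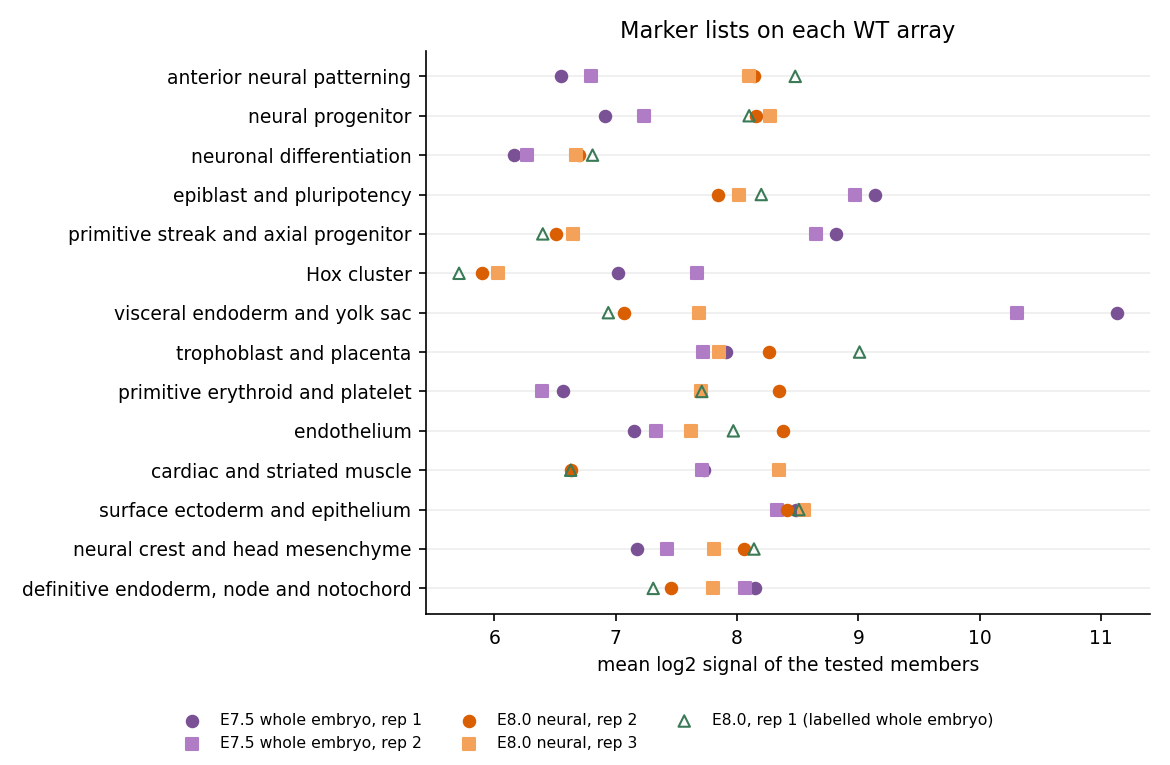
Mean log2 signal of the tested members of 14 marker lists on each WT array, with the E7.5 whole embryos in purple, the E8.0 neural samples in orange and the E8.0 array labelled as a whole embryo as open triangles. Visceral endoderm genes averaged 11.13 and 10.31 at E7.5 and 7.07 and 7.69 at E8.0, while cardiac genes averaged 6.63 on 1 E8.0 array and 8.35 on the other.

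Neural crest, which forms at the border of the neural plate, and head mesenchyme had some genes that rose. Of 20 tested members 6 rose and 2 fell (median 0.17), with 5, 6, 5 and 6 rises when each array was left out. Tfap2b, a factor of crest and surface ectoderm, was at 4.66 and 5.50 at E7.5 and 9.42 and 8.72 at E8.0 (at least 10.1-fold higher, log2 difference 3.99, SE 0.479, adjusted p = 6.85e-06). Sox9, of crest and cartilage precursors, was at 5.21 and 4.90 at E7.5 and 7.69 and 7.70 at E8.0 (at least 3.89-fold higher, log2 difference 2.64, SE 0.411, adjusted p = 0.000131). Tfap2a was at 8.28 and 8.89 at E7.5 and 9.94 and 9.74 at E8.0 (2.39-fold higher, log2 difference 1.26, SE 0.222, adjusted p = 0.00048), and Col2a1, the collagen of notochord and cartilage, rose 5.74-fold (adjusted p = 1.39e-05). Other probes of Tfap2a were at 1.09, which passed, and at 0.50, which did not. Collagen and matrix genes rose in 8 and fell in 1 of 31 tested cases (median 0.39), with 3, 8, 4 and 8 rises when each array was left out. Hapln1, a link protein of hyaluronan matrix, was at 5.13 and 4.65 at E7.5 and 7.32 and 7.24 at E8.0 (at least 2.91-fold higher, log2 difference 2.39, SE 0.23, adjusted p = 5.34e-07), and the proteoglycan Lum was at 4.73 and 6.63 at E7.5 and 10.11 and 8.5 at E8.0 (12.3-fold higher, log2 difference 3.62, SE 0.619, adjusted p = 0.000351).

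Epithelial genes went both ways. Of 22 tested genes of surface ectoderm and epithelium 5 fell and 3 rose (median -0.16), with 4, 6, 4 and 5 falls and 2, 2, 1 and 3 rises when each array was left out, and the falls and rises numbered 5 and 5 under the array identity of the processed values. Beside Cdh1, the tight junction gene Cldn6 fell 2.48-fold, the epithelial adaptor subunit Ap1m2 2.94-fold and the keratin Krt18 2.36-fold (adjusted p = 0.000214, 0.000347 and 0.00123). Another tight junction gene, Cldn3, rose from background, at 5.32 and 5.12 at E7.5 and 7.25 and 6.92 at E8.0 (at least 2.54-fold higher, log2 difference 1.86, SE 0.444, adjusted p = 0.00685, and adjusted p = 0.0699 without E8.0 replicate 2).

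Signalling genes followed in smaller numbers. Among 34 tested Wnt pathway genes 5 rose and 9 fell. Wnt8b, a ligand of the forebrain, was at 4.75 and 4.68 at E7.5 and 7.52 and 7.57 at E8.0 (at least 3.51-fold higher, log2 difference 2.83, SE 0.371, adjusted p = 1.96e-05), and Wnt7b at 4.86 and 5.07 at E7.5 and 9.43 and 8.74 at E8.0 (at least 10.2-fold higher, log2 difference 4.12, SE 0.618, adjusted p = 8.57e-05), with a second Wnt7b probe at 1.38 (adjusted p = 0.0265). The R-spondin receptor Lgr5 fell at least 2.16-fold (adjusted p = 0.000264). Of the FGF pathway 3 of 24 genes fell (12.5%, against 7.49% of all genes) and 0 rose. Etv4, a transcriptional target of FGF signalling, was at 10.13 and 10.66 at E7.5 and 8.17 and 8.40 at E8.0 (4.33-fold lower, log2 difference -2.11, SE 0.232, adjusted p = 2.26e-06). Of 18 Nodal and BMP pathway genes 7 fell and 0 rose, among them Foxh1, the DNA-binding partner of Nodal-activated Smads, at 9.76 and 9.40 at E7.5 and 5.73 and 7.32 at E8.0 (8.3-fold lower, log2 difference -3.05, SE 0.618, adjusted p = 0.00176, and adjusted p = 0.0569 without E8.0 replicate 2), and the inhibitory Smad6 (2.65-fold, adjusted p = 0.0014). With each array left out, falls in these 3 lists numbered 5, 8, 6 and 8, 2, 1, 1 and 3 and 4, 7, 3 and 6. Another probe of Smad6, at -1.29, did not pass. Lefty2, a Nodal inhibitor, was detected in E7.5 replicate 1 alone, at 7.93 and 4.89 at E7.5 and 4.75 and 5.31 at E8.0, and did not pass (adjusted p = 0.106).

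Retinoic acid genes went both ways. Aldh1a2, the enzyme that makes retinoic acid in trunk mesoderm, was at 9.02 and 9.52 at E7.5 and 6.36 and 6.52 at E8.0 (7.1-fold lower, log2 difference -2.83, SE 0.421, adjusted p = 8.04e-05), and Rbp4, the plasma retinol carrier, fell at least 1.78-fold (adjusted p = 7.43e-07). The cytoplasmic binding proteins Crabp1 and Crabp2 were higher, Crabp1 at 9.36 and 10.11 at E7.5 and 12.25 and 11.93 at E8.0 (5.1-fold, log2 difference 2.35, SE 0.265, adjusted p = 3.11e-06) and Crabp2 at 9.86 and 10.92 at E7.5 and 11.92 and 11.85 at E8.0 (2.82-fold, log2 difference 1.49, SE 0.272, adjusted p = 0.00065). In all 4 of 17 tested members rose and 4 fell. Of 18 Notch pathway genes 3 rose and 2 fell, or 16.7% and 11.1%, against 6.55% and 7.49% of all genes. The receptor Notch3 was at 8.20 and 8.55 at E7.5 and 9.48 and 9.51 at E8.0 (2.18-fold higher, log2 difference 1.12, SE 0.2, adjusted p = 0.000514), Hes3, a Hes factor of the midbrain and isthmus, was at 4.84 and 5.06 at E7.5 and 6.59 and 7.23 at E8.0 (at least 2.26-fold higher, log2 difference 1.96, SE 0.466, adjusted p = 0.00664, and adjusted p = 0.0632 to 0.0811 without E7.5 replicate 1 or E8.0 replicate 3), and the ligand Dll1, strong in presomitic mesoderm, fell 2.37-fold (adjusted p = 0.0111, and 0.0833 to 0.105 without E7.5 replicate 1 or E8.0 replicate 3). Among 19 tested genes of planar polarity and neural tube closure 3 rose and 0 fell, namely the receptor Fzd3 (2.36-fold, adjusted p = 0.00049) and the atypical cadherins Celsr1 (at least 1.31-fold, adjusted p = 0.00374) and Celsr2 (3.48-fold, adjusted p = 0.0176, and 0.0547 to 0.289 without E7.5 replicate 1, E8.0 replicate 2 or E8.0 replicate 3), while Vangl2 was at 10.83 and 10.67 at E7.5 and 11.21 and 11.39 at E8.0 (adjusted p = 0.191).

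Most tested genes of housekeeping programmes did not pass in WT, though with the authors' processed values 6 of 20 glycolysis and hypoxia genes rose. Of 27 tested genes of the cell cycle and DNA replication 1 rose and 1 fell (median 0.09). Cdkn1a, the cell cycle inhibitor that p53 induces, was the member that fell, at 9.17 and 8.70 at E7.5 and 6.65 and 7.13 at E8.0 (4.13-fold lower, log2 difference -2.05, SE 0.289, adjusted p = 4.51e-05), and its other probes fell by 0.99 and 1.54. Of 20 tested genes of glycolysis and hypoxia 2 rose (median 0.31), Pdk1, a kinase that restrains pyruvate oxidation, by 2.14-fold (adjusted p = 0.0216, and 0.0836 to 0.167 without E7.5 replicate 1, E8.0 replicate 2 or E8.0 replicate 3) and the aldolase Aldoa by 1.66-fold (adjusted p = 0.0225, and 0.0891 to 0.163 without E7.5 replicate 1, E8.0 replicate 2 or E8.0 replicate 3). Among 32 tested genes of oxidative phosphorylation Sdhd alone passed. In the KO contrast, where 13.8% of all genes rose, 7 of the 32 rose and 0 fell. Imprinted genes were split, 3 of 18 higher and 3 lower. Ndn, a growth suppressor of neurons, was at 11.70 and 11.82 at E7.5 and 12.88 and 12.81 at E8.0 (2.12-fold higher, log2 difference 1.08, SE 0.117, adjusted p = 1.92e-06), and Peg3 was at 8.86 and 9.06 at E7.5 and 7.15 and 7.61 at E8.0 (2.99-fold lower, log2 difference -1.58, SE 0.384, adjusted p = 0.00782, and adjusted p = 0.0954 without E8.0 replicate 2).

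The same contrast in KO embryos, which shares no array with the WT contrast, gave largely the same directions. Both contrasts came from the same fit and share the pooled spread of each gene, so their calls are not independent. Of 10261 genes 1418 were higher (13.8%) and 1234 lower (12.0%) in KO neural tissue at E8.0 than in KO whole embryos at E7.5. Among the 672 genes that rose in WT, 630 had a positive KO difference, 447 rose in KO by the test (66.5% of the WT rises and 31.5% of the KO rises) and 0 fell. Among the 769 that fell in WT, 747 had a negative KO difference, 648 fell by the test (84.3% of the WT falls and 52.5% of the KO falls) and 3 rose, Golt1b, Perm1 and Sdhd. Across genes, which are not independent replicates, the differences correlated with r = 0.79 (rho = 0.55, n = 10261). The KO counts were 933 and 960 without KO E7.5 replicate 2 and 810 and 830 within plate 1. With the KO arrays fitted alone they were 552 and 667, and the overlap of those calls with the WT calls was not counted.

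The 30 largest WT changes had the same sign in KO embryos and 28 of them passed there, all but Prl2c3 (3.51, adjusted p = 0.0598) and Prl2c4 (3.29, adjusted p = 0.0633). Prl2c3 was at 11.75, 7.98 and 4.63 in the KO embryos at E7.5 and at 10.69, 12.61 and 11.59 in the KO samples at E8.0. Prl2c4 was at 11.40, 7.53 and 4.66 in those E7.5 embryos, so a whole E7.5 embryo could be as bright as E8.0 tissue in these genes. Cdx2 was at 11.27, 12.03 and 12.31 at E7.5 and 6.05, 5.87 and 5.39 at E8.0 in KO embryos (-6.10, adjusted p = 2.39e-13). The Hba-x signal was at 8.90, 4.66 and 5.77 at E7.5 and 11.91, 12.29 and 13.27 at E8.0 (6.05, adjusted p = 2.8e-06), with the KO E7.5 embryos spread over a wide range. En1 rose by 3.67 in KO embryos (adjusted p = 1.68e-06), Otx1 by 3.13 (adjusted p = 4.39e-07), Nr2f1 by 5.74 (adjusted p = 2.17e-10) and Pou5f1 fell by 4.37 (adjusted p = 1.34e-05). Visceral endoderm again gave 35 falls among 36 genes, with a KO median of -3.28 beside -3.35 in WT. The KO medians of the streak and Hox lists were -0.92 and -1.01, beside -1.56 and -1.25 in WT, and 14 of 26 and 9 of 18 members fell.

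Some neural genes that rose in WT did not pass in KO embryos. Sox2 differed by 0.83 in KO (adjusted p = 0.143), Nkx2-2 by 0.18 (adjusted p = 0.755), Uchl1 by 0.42 (adjusted p = 0.104) and Hes3 by 0.35 (adjusted p = 0.549). A test of the difference between the contrasts passed for 0 of these genes (adjusted p = 0.281, 0.322, 0.181 and 0.389), and over all genes it passed for 2, Golt1b and Sdhd, or 0.0195%. In limma the count was 0 with the array identity of the processed values (608 genes at an unadjusted p under 0.05) and 0 with all 3 E8.0 WT arrays in the group (696 genes), against 1037 genes at that unadjusted p in the comparison given here.

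**Figure D4:**
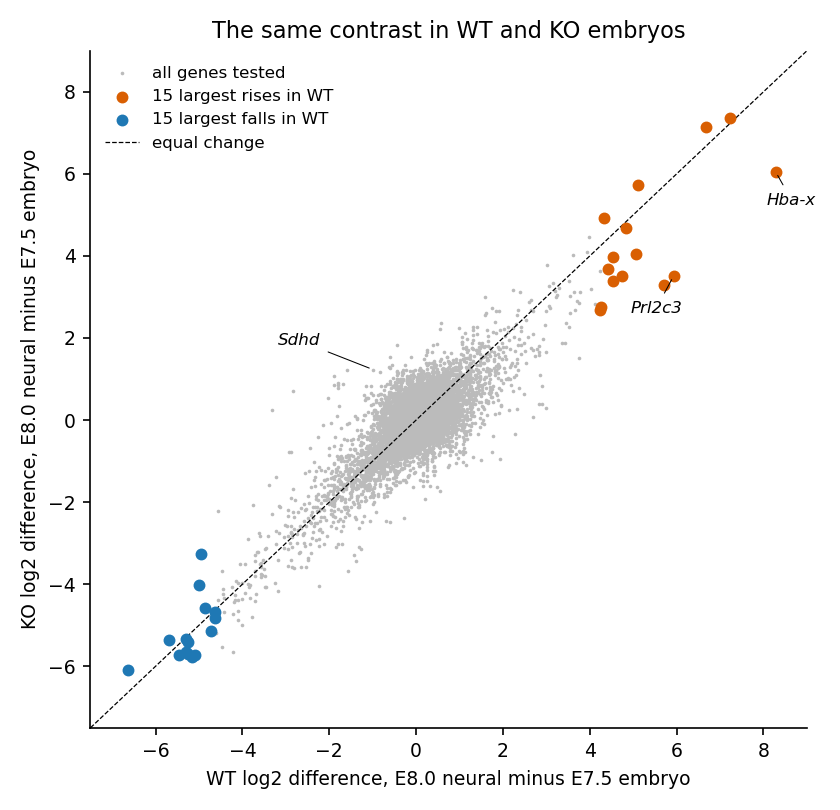
Log2 difference between E8.0 neural tissue and E7.5 embryo in KO embryos (3 and 3 arrays) against that in WT embryos (2 and 2 arrays) for 10261 genes, with the 15 largest WT rises in orange, the 15 largest WT falls in blue and a dashed line of equal change. Of the 30 coloured genes every one has the same sign in both genotypes, and Sdhd lies at -0.99 in WT and 1.23 in KO.

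**Figure D5:**
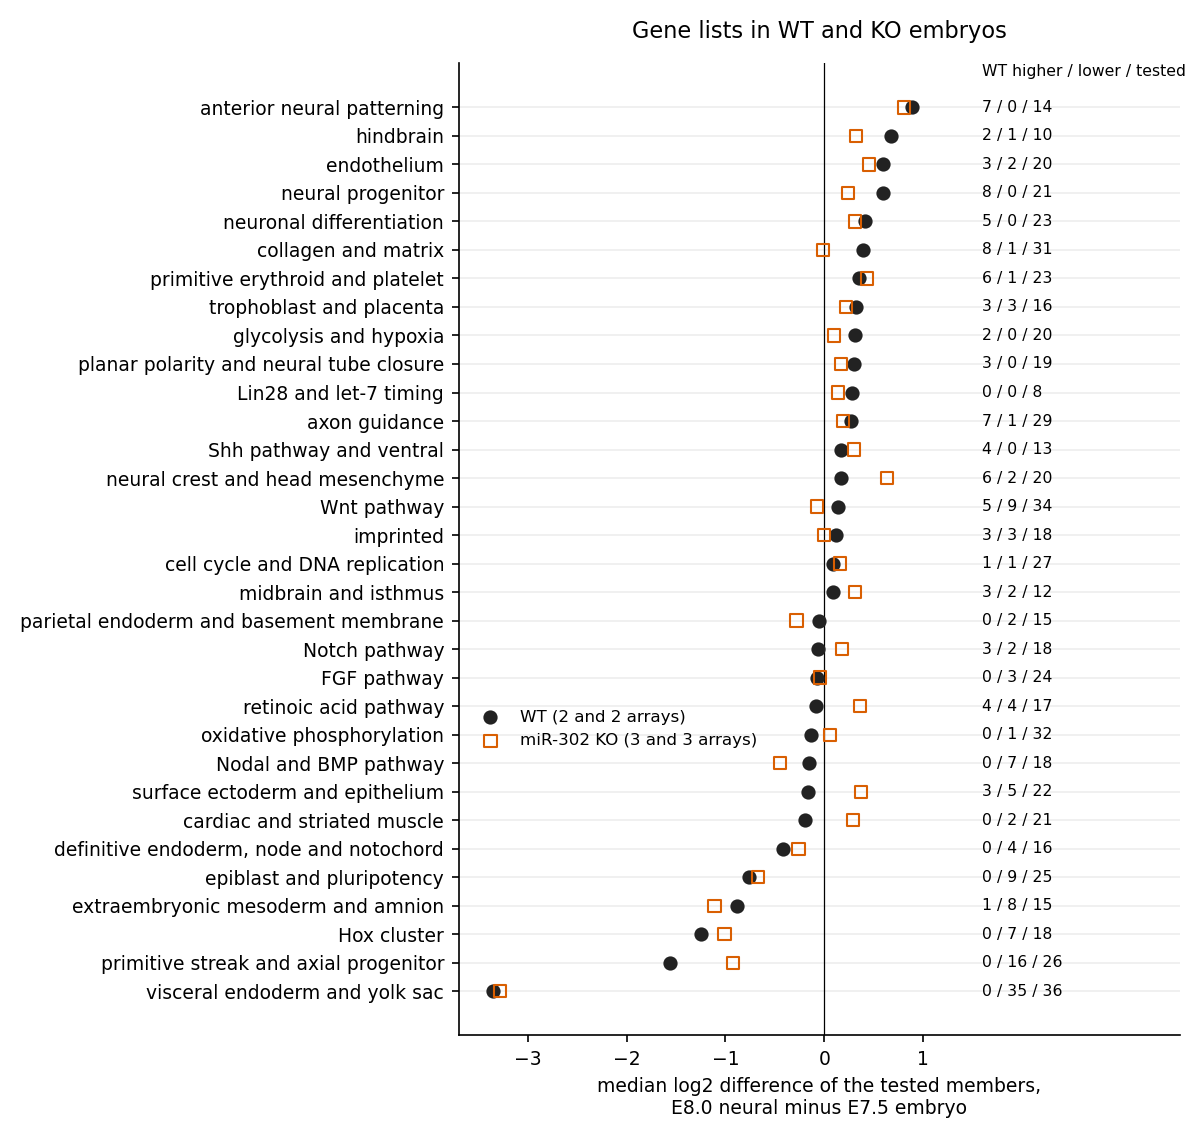
Median log2 difference of the tested members of 32 gene lists in WT (filled circles) and KO embryos (open squares), with the WT counts of higher, lower and tested members at the right. The visceral endoderm list lies lowest in both genotypes, at -3.35 and -3.28, and anterior neural patterning highest in WT, at 0.89.

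The third E8.0 WT array, headed replicate 1 and labelled as a whole embryo, resembled the neural samples. It correlated at 0.983 and 0.982 with the E8.0 neural arrays and at 0.954 and 0.964 with the E7.5 embryos. Cdx2 stood at 5.43 there, Tbx6 at 5.59 and Hoxb7 at 5.01, all at or near the level of the neural samples, while Otx1 stood at 12.38 and En2 at 10.12. These posterior markers were thus at or near background on all 3 arrays, whichever of them is the whole embryo. The array differed from the neural pair in other genes. Hand1 stood at 6.77 on it against 5.20 and 4.76, Six3 at 7.01 against 5.57 and 5.82, and Thbs2, a matrix glycoprotein, at 4.54 against 7.48 and 6.06.

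Under the identity of the processed values, 664 genes were higher and 737 lower, and 493 of the 672 rises and 643 of the 769 falls passed again. With all 3 arrays as a single E8.0 group the counts were 838 and 878, with 594 and 726 shared. Of the 30 largest changes all but Hba-a1 passed under the other identity, and all 30 passed with the 3 arrays together. The values of Otx2 (1.40, adjusted p = 0.00653) and Six3 (1.60, adjusted p = 0.00261) were larger under the other identity. Thbs2, which rose in the main comparison (log2 difference 1.94, SE 0.482, adjusted p = 0.0093, and adjusted p = 0.0535 to 0.2 without E7.5 replicate 1 or E8.0 replicate 2), did not pass under it (0.47, adjusted p = 0.63), and neither did Sdhd (-0.01, adjusted p = 0.996).

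Of 131 genes given here that passed, not counting Golt1b and Perm1, 8 lost the call under the identity of the processed values. Beside Hba-a1, Thbs2 and Sdhd these were Hoxb1 (-2.11, adjusted p = 0.0565), Cldn3 (1.24, adjusted p = 0.0872), Alas2 (1.64, adjusted p = 0.103), Dnmt3b (-0.50, adjusted p = 0.142) and Utf1 (-0.82, adjusted p = 0.213). With all 3 arrays Thbs2, Sdhd and Utf1 lost it.

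With the authors' processed values in place of the normalized signals, 26 of the 131 did not pass. Of neural and signalling genes these were Wnt7b (1.13, adjusted p = 0.0668), Zic1 (0.44, adjusted p = 0.305), Nkx2-2 (0.33, adjusted p = 0.101), Celsr1 (0.22, adjusted p = 0.156) and Crabp2 (1.03, adjusted p = 0.0512). Of blood, vessel and matrix genes they were Slc4a1 (1.51, adjusted p = 0.075), Hba-a1 (3.69, adjusted p = 0.0903), Alas2 (0.44, adjusted p = 0.44), Icam2 (0.90, adjusted p = 0.0526), Plvap (1.07, adjusted p = 0.0684), Lum (1.22, adjusted p = 0.0587) and Thbs2 (0.04, adjusted p = 0.922). The placental Prl2c3 (3.18, adjusted p = 0.13), Prl2c4 (2.83, adjusted p = 0.148), Prl4a1 (2.14, adjusted p = 0.0664) and Rhox9 (2.65, adjusted p = 0.0805) were lost too. Among the falls, Nanog (-0.74, adjusted p = 0.141), Utf1 (-0.16, adjusted p = 0.585), Fgf5 (-0.34, adjusted p = 0.128), Dnmt3b (-0.60, adjusted p = 0.0953), Ifitm1 (-0.32, adjusted p = 0.0928), Hand1 (-0.40, adjusted p = 0.0936), Gata5 (-0.29, adjusted p = 0.0942) and Afp (-0.28, adjusted p = 0.104) did not pass. The last 2 were Cldn3 (0.24, adjusted p = 0.511) and Sdhd (0.01, adjusted p = 0.986). On the 4 arrays fitted alone 51 of the 131 did not pass.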

How the data were processed

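RNA from 25 mouse embryo samples was labelled and hybridised to bead arrays. Per the file headers, the authors deposited for each of 25697 probes an average signal, a linear intensity that had not been normalized, and a detection p-value. They also deposited processed intensity values, with the tools not stated in these sources. Per the labels' protocols, RNA from Trizol was cleaned up with a kit, treated with DNase and copied into biotin-labelled cRNA.

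From the deposited intensity values, neqc (limma 3.58.1, R 4.3.3) gave background-corrected, quantile-normalized log2 values with an offset of 16, using the detection p-values. A probe was kept with a detection p under 0.05 on at least 3 arrays (15030 probes), and the brightest named probe stood for each of 10261 genes. The platform annotation named 23978 probes. A linear model over 9 groups (16 residual degrees of freedom) was fitted with lmFit and eBayes, two-sided, with Benjamini-Hochberg adjustment over all genes, so every adjusted p of a gene is limma's. For a bound, the dimmer group's value on each array was raised to the lowest detected value of that array where it lay below it, and the means of the groups were then compared. The number of arrays limits the precision.

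Named were the 15 largest rises and 15 largest falls that passed, without overlap and with a signal on both brighter arrays, leaving out sex-linked markers and unnamed models. Up to 6 genes of smallest p per list and a set of 29 developmental genes were added, not all of them printed. Golt1b and Perm1 were chosen after their values were seen. The members and lists were chosen with earlier results of these data known.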

Additional observations from a re-analysis of the deposited data

Results flagged for a closer look

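The difference between the KO and the WT change passed a test for 2 of 10261 genes, both with adjusted p = 0.0335 in limma. Golt1b, a vesicle transport gene of the Golgi, stood at 6.85 and 6.58 at E7.5 and 5.66 and 6.02 at E8.0 in WT embryos, a fall, and rose in KO embryos, so that the KO change exceeded the WT change by 1.49 on the log2 scale (SE 0.243). Sdhd, a membrane anchor of succinate dehydrogenase, stood at 5.93 and 5.68 at E7.5 and 4.84 and 4.78 at E8.0 in WT embryos, and the KO change exceeded the WT change by 2.22 (SE 0.354). On the third E8.0 WT array Golt1b stood at 6.94 and Sdhd at 6.82, above both E8.0 arrays used. With that array in the group, or with the array identity of the processed table, 0 genes differed between the contrasts. Perm1 was the other gene of the 3 that fell in WT and rose in KO, and its difference between contrasts did not pass (1.87, adjusted p = 0.181).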

How the results depend on the processing

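The counts of WT rises and falls were recomputed under 18 alternatives. Of the 15 largest rises and 15 largest falls, all passed under quantile normalization without background correction, an offset of 50, the stricter detection filter, the mean of probes, plate as a covariate or random block, and all 3 E8.0 WT arrays. Hba-a1 was lost without a detection filter, within plate 1 and under the array identity of the processed values. The authors' processed values were fitted under their own array identity and on 17 arrays. They gave 428 rises and lost 5 of the 15 largest, Prl2c3, Prl2c4, Slc4a1, Hba-a1 and Prl4a1. Fitting the 3 stages up to E8.5 (17 arrays) gave 445 rises and lost Prl2c3, Prl2c4, Hba-a1 and Prl4a1. The 4 arrays alone gave 132 rises and 225 falls and lost Prl2c3, Prl2c4, Ttr and Apoa1, with 2100 genes at an unadjusted p under 0.05. Fewer arrays to pool the spread over are part of the construction of these settings. Leaving out 1 of the 4 arrays gave 338 to 635 rises and 413 to 750 falls, with 338 and 413 without E7.5 replicate 1 and 360 and 490 without E8.0 replicate 2. Within plate 1 the KO contrast gave 810 rises, and leaving out 1 KO array gave 933 (without KO E7.5 replicate 2) to 1502 rises and 960 to 1332 falls. Genes whose change differs between KO and WT numbered 2 in the comparison as reported and, in limma, 0 with the processed values (399 at an unadjusted p under 0.05), 4 without a detection filter, 0 within plate 1 (1117 unadjusted), 10 with plate as a covariate, and 0 under the other identity (608 unadjusted) or with all 3 arrays (696 unadjusted). The cause was not tested.

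WT groups share only replicate number 2, so no paired analysis was possible because a block needs at least 2 shared numbers. In the KO groups same-numbered samples deviated together by 0.199, -0.005 and 0.27, which does not meet the bar set for pairing, a correlation over 0.1 in every pair. Replicate 1 of both groups was on plate 2 and replicates 2 and 3 of both on plate 1, and at E7.5 replicates 1 and 3 but not 2 correlated best with their own number. There the 6 arrays alone gave 452 rises and 630 falls with the replicate block, against 552 and 667 without it. Genes that did not pass changed sign when 1 array was left out. Lefty2 ranged from -2.91 to 0.14, Nkx2-5 from -0.05 to 2.08 and Sox1 from -0.09 to 0.54, with the sign changed without E7.5 replicate 1 for Lefty2 and without E8.0 replicate 3 for Nkx2-5 and Sox1. Sdhd, which fell by 0.99, was at 0.01 with the processed values (adjusted p = 0.986) and at -0.01 under their array identity alone. The detection p-values as paired by the headers, an alternative chosen after seeing the data, gave 671 rises and 775 falls. A bound was given only where a gene was detected on neither array of the dimmer group. Some plain folds thus also rest on values near background, among them those of Sox2, Cdx1, Nkx6-1 and Trf.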
